A study of Mus musculus with 16 samples.

Results

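Integrins and cadherins are the adhesion receptors that hold cells to the matrix and to each other, and their genes were followed here in mouse gingival fibroblasts (mGF) from cultures labelled palmitate, IL-1β or both. Members were the rows of the gene table whose symbol matched Itga, Itgb or Cdh followed by the chain's number or letter. This rule took 49 of the 56941 genes, made up of 18 integrin alpha chains, 8 integrin beta chains and 23 cadherins. Of these, 34 had 10 or more counts in 4 or more libraries (13 alpha chains, 6 beta chains and 15 cadherins). The same number, 34, entered the test, among 16306 genes tested in all. The primary fibroblasts came from gingival explants taken around the maxillary second molar of WT C57Bl6 mice aged 3 to 6 months, were used between passages 2 and 8, and were grown in medium with 20% fetal bovine serum. By their labels, the 4 groups of 4 libraries were BSA (the carrier protein alone, as vehicle), IL-1β, palmitate complexed to BSA, and palmitate + IL-1β. The doses were 1 ng/mL of IL-1β and 200 µM of palmitate, alone and combined. The treatment time of 24 h is from the paper's legend for these RNA-seq data. All 4 groups thus share the genotype, the explant source and the serum. The comparisons ask how the transcripts of adhesion receptors differed from vehicle with a saturated fatty acid, with an inflammatory cytokine and with both. Nothing in the labels says that the 4 libraries of a group came from separate animals or separate cultures, so p-values measure the spread between these libraries only.

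An integrin is a pair of one alpha and one beta chain, and the pair decides which matrix protein or counter-receptor the cell can bind. In fibroblasts, pairs built on the chain encoded by Itgb1 bind collagens, fibronectin and laminins, and pairs built on the chain encoded by Itgav bind proteins with an arginine-glycine-aspartate (RGD) motif and the latent form of TGF-β. Classical cadherins bind the same cadherin on a neighbouring cell and are tied to actin through catenins. Cdh11 and Cdh2 are the classical cadherins best known in connective tissue fibroblasts, and Cdh1 is the epithelial one.

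Gene counts per library ran from 21234789 to 92752515, the highest in palmitate-labelled replicate 10, and 3 counts corresponded to between 0.033 and 0.146 CPM (the count of a gene relative to the size of its library). The members together held between 0.56% and 0.607% of a library's counts. The labelled cell type was checked against its markers. The 10 fibroblast markers, Col1a1, Pdgfra and Thy1 among them, summed to 34100 to 36100 CPM in BSA, 36000 to 36500 under the IL-1β label, 31800 to 34000 under the palmitate label and 31300 to 33100 in palmitate + IL-1β. All libraries labelled palmitate or palmitate + IL-1β were thus below all BSA libraries in this sum, and its part in the differences of the members was not tested. The single markers did not move alike. Vim stood at 5650 ± 213 CPM in BSA and 4550 ± 79.7 under the palmitate label (SD, n = 4). Pdgfra went the other way, from 213 ± 7.5 to 309 ± 9.88 CPM, and Col3a1 stood at 4950 CPM in both. The 8 epithelial markers stayed at or under 0.34 CPM in sum, and Krt4 was at 0 in every library. The 10 leukocyte markers summed to between 2.57 and 4.38 CPM, and Tyrobp was at 0 throughout. In bulk RNA, fewer cells of a type and less RNA per cell cannot be told apart.

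Compared directly, the libraries labelled IL-1β and palmitate went against their labels in most genes examined that are known to respond to these agents. The genes were chosen after the data were seen. Cpt1a, which encodes the enzyme that admits fatty acids to mitochondria, stood at 112 ± 2.17 CPM in BSA, 216 ± 8.05 under the IL-1β label, 82.3 ± 4.02 under the palmitate label and 214 ± 7.45 with both (SD, n = 4). Plin2, a coat protein of lipid droplets, stood at 62.4 ± 0.767, 84.4 ± 5.59, 50.1 ± 2.36 and 83.8 ± 2.72 CPM in the same order, and Angptl4, a target of fatty acid sensing receptors, at 4.44 ± 1.35, 100 ± 3.4, 20.7 ± 2.67 and 154 ± 5.9 CPM. Of 10 genes of the fatty acid response, 8 were called higher under the IL-1β label than in BSA, and under the palmitate label 2 were called higher and 6 lower. Set against each other, 9 of the 10 were lower under the palmitate label than under the IL-1β label, beside 15.2% of all genes tested. Of 10 genes of the response to IL-1β, 9 were called higher than in BSA under the IL-1β label and 10 under the palmitate label. In the direct comparison 9 of these were higher under the palmitate label, beside 16.5% of all genes tested. Cxcl5, a chemokine, stood at 2.98 ± 0.192 CPM in BSA, 29.4 ± 2.34 under the IL-1β label, 582 ± 13.1 under the palmitate label and 629 ± 43.3 with both, and Il6 at 0.439 ± 0.071, 0.922 ± 0.184, 7.97 ± 0.959 and 9.34 ± 0.98 CPM. Which agent these 8 libraries received was not tested, and the groups are used as labelled. A difference given under the palmitate or the IL-1β label is therefore one of the libraries so labelled, and is not assigned to the agent. If the labels of these groups were exchanged, the comparisons of single agents would trade names, while palmitate + IL-1β against BSA and the interaction would keep their values.

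In the BSA libraries the transcripts of the families were led by a few genes. Levels between genes are given as CPM per kb of annotated exon. Itgb1 stood at 384, ahead of Itga5 (99.9), Cdh11 (69.5), Itgav (53.0), Itga11 (41.9), Cdh2 (33.2), Itgb5 (32.2) and Itga8 (25.3). Cdh2 and Itgb5 overlapped in their libraries and are not ordered by these data. Next came Itgb3 at 7.41, Cdh6 at 5.97 and Itga3 at 5.54 CPM per kb, and the remaining tested members reached lower levels down to Cdh22 at 0.0233. Within the beta chains, Itgb1 accounted for 90.2% to 90.6% of the per-kb signal in the BSA libraries. Within the cadherins, Cdh11 made up 59.1% to 61.3% and Cdh2 27.4% to 30.7%. The 15 members that were not tested comprised 7 integrin chains and 8 cadherins, with a highest count of 23 in any library. They were Itgad, Itgae, Itgal, Itgam, Itgax, Itgb6, Itgb7, Cdh4, Cdh7, Cdh8, Cdh9, Cdh12, Cdh16, Cdh19 and Cdh20. Cdh12 had no count in any library.

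**Figure D1:**
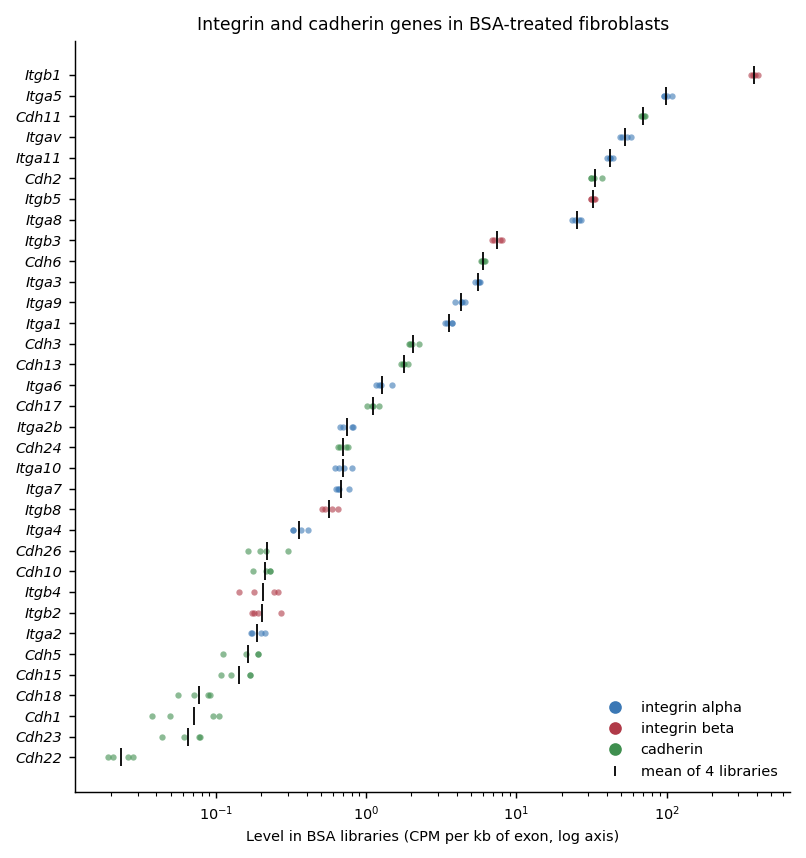
Level of the 34 tested integrin and cadherin genes in the 4 BSA libraries, as CPM per kb of exon on a log axis, with 1 point per library and a tick at the mean. Itgb1 lies at 384, Cdh11 leads the cadherins at 69.5, and the lowest member, Cdh22, lies at 0.0233.

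RefSeq promoter windows, with 250 bases before and 50 after the transcription start, were matched by symbol for 31 of the 49 members (35 windows, build GRCm38.p6). The windows of 4 integrin chains that moved in different directions are shown, located in GRCm39 by an exact match of the letters. Itgav and Itgb5 encode chains that pair with each other, Itga2 was the alpha chain with the largest rise, and Itga2b was the member with a called interaction. Capitals mark the letters GGGCGG on either strand, the core of an SP1 box.
Itgav, chr2:83554491-83554790, plus strand: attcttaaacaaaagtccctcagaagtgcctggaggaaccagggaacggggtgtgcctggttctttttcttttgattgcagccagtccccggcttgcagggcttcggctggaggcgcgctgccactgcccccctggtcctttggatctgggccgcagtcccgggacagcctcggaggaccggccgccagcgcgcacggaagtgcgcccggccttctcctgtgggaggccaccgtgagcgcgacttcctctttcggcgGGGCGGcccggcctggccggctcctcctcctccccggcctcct
Itgb5, chr16:33649785-33650084, plus strand: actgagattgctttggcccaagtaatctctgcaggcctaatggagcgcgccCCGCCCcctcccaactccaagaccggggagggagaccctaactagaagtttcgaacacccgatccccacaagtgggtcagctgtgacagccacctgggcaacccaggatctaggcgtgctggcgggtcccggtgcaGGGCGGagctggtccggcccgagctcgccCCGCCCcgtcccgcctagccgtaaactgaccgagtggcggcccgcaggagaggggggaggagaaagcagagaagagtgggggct
Itga2, chr13:115068587-115068886, minus strand: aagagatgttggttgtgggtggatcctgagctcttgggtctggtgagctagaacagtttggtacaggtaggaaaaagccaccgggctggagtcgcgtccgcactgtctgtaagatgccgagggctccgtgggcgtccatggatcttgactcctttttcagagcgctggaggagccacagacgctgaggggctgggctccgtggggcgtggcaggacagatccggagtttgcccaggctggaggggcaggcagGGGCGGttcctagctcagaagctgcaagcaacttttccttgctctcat
Itga2b, chr11:102360660-102360959, minus strand: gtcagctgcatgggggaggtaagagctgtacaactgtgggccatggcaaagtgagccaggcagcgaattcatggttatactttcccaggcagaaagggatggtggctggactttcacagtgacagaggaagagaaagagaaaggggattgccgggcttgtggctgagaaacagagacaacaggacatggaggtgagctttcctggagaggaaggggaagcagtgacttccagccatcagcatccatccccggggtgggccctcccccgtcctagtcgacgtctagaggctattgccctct
The Itgav window lay wholly in annotated exon of that gene. The Itgb5 window had 97 exonic bases and 203 outside the gene, and the Itga2 window had 50 exonic bases and 250 outside, where it also overlapped the gene Mocs2. The Itga2b window had 237 exonic and 59 intronic bases. GGGCGG was found 3 times in the Itgb5 window, 1 time each in the Itgav and Itga2 windows, and not in that of Itga2b. Over all 32851 RefSeq promoters of this length 35.7% held it, and 14 of the 35 member windows did. The NF-kB motif was in 2 of 35 member windows against 4.51% of all promoters. The AP-1 letters TGANTCA were in 3 of 35 against 7.81%, and TATAAA was in 0 of 35 against 13.6%. None of the 3 was in the windows shown, and a match or its absence describes the letters only.

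Against BSA, 10 of the 34 tested members were higher and 14 lower in the libraries labelled palmitate, and 10 did not pass the test (edgeR's quasi-likelihood test, Benjamini-Hochberg adjustment over all tested genes, called at an adjusted p under 0.05). That is 29.4% of the members higher and 41.2% lower, beside 19.8% and 17.5% of all genes tested. By family, 6 alpha chains rose and 5 fell of 13, 1 beta chain rose and 2 fell of 6, and 3 cadherins rose and 7 fell of 15. The median log2 fold change was -0.11 over the members, beside -0.003 over all tested genes. The range was -1.21 to 2.11, set by the scarce Cdh15 and Cdh22. The palmitate-labelled and BSA libraries did not overlap in 22 of the 34 members, beside 36% of all genes tested. With upper-quartile scaling, which moved the median of all genes to -0.072, 7 members were called higher and 16 lower.

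**Figure D2:**
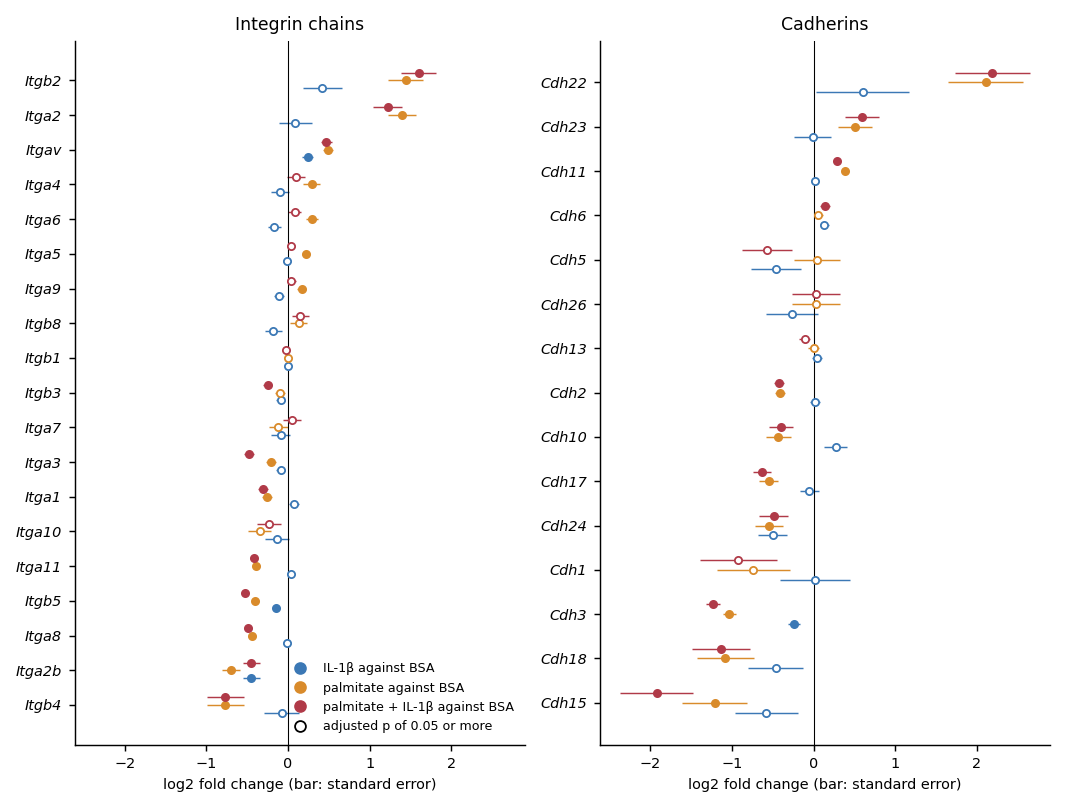
Log2 fold change against BSA for the 19 tested integrin chains (left) and 15 tested cadherins (right) in the libraries labelled IL-1β, palmitate and palmitate + IL-1β, with bars for the standard error and open circles for an adjusted p of 0.05 or more. Itgb2, Itga2 and Cdh22 lie furthest to the right under the palmitate label, and Cdh15, Cdh18 and Cdh3 furthest to the left.

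Of the chains that bind fibronectin and other RGD ligands, Itgav rose under the palmitate label while Itgb5 and Itga8 fell. Itgb1, the common partner chain, read 2190, 2240, 2430 and 2310 CPM in BSA replicates 1 to 4 and 2300, 2290, 2290 and 2310 CPM in palmitate-labelled replicates 9 to 12. These groups overlapped, with a log2 fold change of 0.00 (SE 0.038, adjusted p 0.961). Itgav read 606, 623, 714 and 674 CPM in BSA and 956, 941, 876 and 914 CPM under the palmitate label, with no overlap. Its log2 fold change was 0.49 (SE 0.0646, adjusted p 1.7e-06). Itga5, the fibronectin receptor's alpha chain, read 512, 508, 574 and 533 CPM in BSA and 628, 606, 615 and 633 CPM under the palmitate label. Every palmitate-labelled library was above every BSA library, and the log2 fold change was 0.22 (adjusted p 5.1e-04). Itgb5, a partner of Itgav, read 223, 221, 231 and 235 CPM in BSA and 175, 170, 171 and 173 CPM under the palmitate label. It was lower in every palmitate-labelled library (log2 fold change -0.40, SE 0.0393, adjusted p 5.7e-10). In Itgb5, 10.3% of the longest protein-coding transcript matched another annotated gene (Gm38317) at 95% identity or more, so part of its count is uncertain.

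Itga8, which pairs with the chain of Itgb1 and binds nephronectin, fell from 273 ± 17.4 CPM (SD, n = 4) in BSA to 201 ± 5.82 under the palmitate label (log2 fold change -0.44, adjusted p 6.1e-09). Its libraries read 253, 263, 291 and 282 CPM in BSA and 200, 198, 197 and 210 CPM under the palmitate label, with no overlap. Itga2b, the alpha chain of the platelet fibrinogen receptor, was scarce here. It read 6.56, 5.71, 6.71 and 5.48 CPM in BSA and 4.13, 3.7, 3.74 and 3.61 CPM under the palmitate label, which do not overlap (log2 fold change -0.70, SE 0.107, adjusted p 3.0e-06). In Itga2b, 5.73% of the longest protein-coding transcript was shared with other genes. Itgb3, the partner of Itga2b and of Itgav, had a log2 fold change of -0.10 under the palmitate label (adjusted p 0.168). Itgb8, another partner of Itgav, had one of 0.13 (adjusted p 0.364).

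Among the collagen receptors the chains moved in different directions. Itga11, the fibroblast receptor for fibrillar collagen, read 257, 248, 258 and 270 CPM in BSA and 199, 199, 189 and 200 CPM under the palmitate label. The groups did not overlap, and Itga11 fell by 0.39 on the log2 scale (SE 0.0404, adjusted p 1.8e-09). Itga1, which binds collagen IV, ran from 71.7 to 79.4 CPM in BSA and from 57.2 to 67.2 CPM under the palmitate label. Its log2 fold change was -0.26 (adjusted p 9.5e-04), and 6.15% of its longest protein-coding transcript was shared with Gm49395. Itga2, the neighbour of Itga1 on chromosome 13 and another collagen receptor, started far lower. Itga2 read 1.51, 1.23, 1.41 and 1.22 CPM in BSA and 3.69, 3.82, 3.27 and 3.32 CPM under the palmitate label. Every palmitate-labelled library was above every BSA library, and the log2 fold change was 1.40 (SE 0.173, adjusted p 6.3e-08). Per kb of exon the level of Itga2 in BSA (0.188) remained small beside those of Itga11 (41.9) and Itga1 (3.56). Itga10 had a log2 fold change of -0.35 that did not pass (adjusted p 0.0601). Of its longest protein-coding transcript, 34.5% was shared with another annotated gene.

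Of the laminin-binding chains, Itga6 rose under the palmitate label and Itga3 and Itgb4 fell. Itga6 ran from 13.2 to 16.8 CPM in BSA and from 16.8 to 18.5 CPM under the palmitate label (log2 fold change 0.29, adjusted p 0.00333). Itga3 ran from 31.0 to 33.2 CPM in BSA and from 25.7 to 28.8 CPM under the palmitate label (log2 fold change -0.21, adjusted p 0.00446). Itgb4, which pairs with Itga6 in epithelial hemidesmosomes, read 1.03, 1.29, 1.87 and 1.75 CPM in BSA and 1.16, 0.815, 0.697 and 0.862 CPM under the palmitate label. BSA replicate 1 lay under palmitate-labelled replicate 9, so the groups overlapped, and the log2 fold change was -0.77 (SE 0.225, adjusted p 0.00702). Itga7, the muscle laminin receptor, had a log2 fold change of -0.12 (adjusted p 0.463).

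Itgb2, the beta chain of leukocyte integrins, rose from a low level. It read 0.621, 0.581, 0.877 and 0.559 CPM in BSA (16 to 23 counts) and 1.75, 1.67, 2.24 and 1.52 CPM under the palmitate label (36 to 152 counts). The groups did not overlap, and the log2 fold change was 1.44 (SE 0.213, adjusted p 1.5e-06). Its partner alpha chains Itgal, Itgam, Itgax and Itgad, which lie together on chromosome 7, were all too low to test. Of the 10 leukocyte markers 3 were high enough to test, and the summed levels were 2.58 to 4.38 CPM in BSA and 2.57 to 3.45 CPM under the palmitate label, which overlap. In Itgb2, 7.3% of the longest protein-coding transcript was shared with Gm14699. Itga4, which binds Vcam1 and fibronectin, ran from 5.41 to 6.85 CPM in BSA and from 6.68 to 7.90 CPM under the palmitate label (log2 fold change 0.29, adjusted p 0.0349). That call was lost in 7 of 22 alternatives, among them the omission of BSA replicate 1 (adjusted p 0.129), 2 (0.0563) or 3 (0.0965) and of palmitate-labelled replicate 9 (0.0572) or 10 (0.174). Itga9, a receptor for tenascin C, had a log2 fold change of 0.17 (adjusted p 0.0131), which was lost without BSA replicate 2 (adjusted p 0.0966), without palmitate-labelled replicate 10 (0.0685) or with upper-quartile scaling (0.126).

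**Figure D3:**
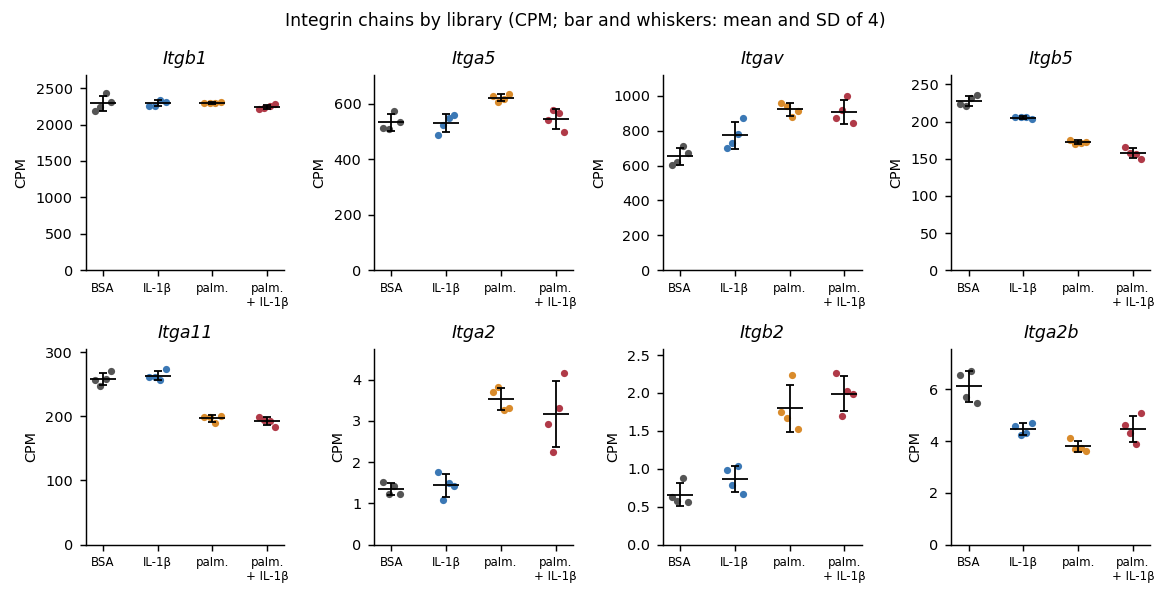
CPM of 8 integrin chains in every library, with a bar and whiskers for the mean and SD of 4 libraries and linear axes from 0. Itgb1 stays between 2190 and 2430 CPM in all groups, Itgav is higher and Itgb5 and Itga11 are lower in all 8 libraries labelled palmitate or palmitate + IL-1β than in the 4 BSA libraries, and Itga2b is lowest under the palmitate label.

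Cdh11 rose and Cdh2 fell under the palmitate label, so the balance of the leading cadherins shifted. Cdh11, the mesenchymal cadherin also called OB-cadherin, read 797, 783, 819 and 830 CPM in BSA and 1080, 1040, 1040 and 1050 CPM under the palmitate label. All palmitate-labelled libraries were above all BSA libraries (log2 fold change 0.38, SE 0.037, adjusted p 4.5e-10). In Cdh11, 19.2% of the longest protein-coding transcript matched other annotated genes at 95% identity or more, so part of its reads could have been assigned elsewhere. Cdh2, or N-cadherin, read 286, 272, 273 and 322 CPM in BSA and 225, 225, 208 and 208 CPM under the palmitate label. The groups did not overlap (log2 fold change -0.41, SE 0.0631, adjusted p 1.1e-05). Per kb of exon, the share of Cdh11 among the cadherins went from 59.1% to 61.3% in BSA to 70.6% to 72.1% under the palmitate label, and that of Cdh2 from 27.4% to 30.7% to 19.2% to 20.4%. Cdh6, the next cadherin by level, read 58.8, 61.5, 62.8 and 60.2 CPM in BSA and 69.6, 66.6, 57.6 and 59.6 CPM under the palmitate label. The groups overlapped, and the difference did not pass (log2 fold change 0.06, adjusted p 0.44). Cdh13, which is held in the membrane by a lipid anchor, had a log2 fold change of 0.00 (SE 0.0629, adjusted p 0.979).

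Cdh3, or P-cadherin, had the smallest adjusted p of all members. It read 14.9, 12.6, 13.2 and 12.9 CPM in BSA and 6.31, 6.28, 7.01 and 6.77 CPM under the palmitate label, and the lowest BSA library was well above the highest palmitate-labelled library. Cdh3 fell by 1.03 on the log2 scale (SE 0.0797, adjusted p 2.7e-12). Cdh1, or E-cadherin, whose gene follows Cdh3 on chromosome 8 (107237456 to 107283929 for Cdh3 and 107329941 to 107396880 for Cdh1, GRCm39), had 2 to 18 counts in any library. Its log2 fold change of -0.74 did not pass (SE 0.447, adjusted p 0.2). Cdh17, the liver-intestine cadherin, read 4.58, 5.52, 4.96 and 5.03 CPM in BSA and 3.4, 3.75, 3.01 and 3.28 CPM under the palmitate label, with no overlap (log2 fold change -0.55, adjusted p 2.0e-04). Cdh5, the cadherin of endothelial junctions, had a log2 fold change of 0.04 (adjusted p 0.933), and Cdh26 had one of 0.03 (adjusted p 0.957).

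The rest of the cadherins that were called were scarce. Cdh22 had only 4 to 6 counts per BSA library, or 0.177, 0.129, 0.191 and 0.14 CPM, against 0.534, 0.826, 0.587 and 0.739 CPM under the palmitate label. The groups did not overlap (log2 fold change 2.11, SE 0.458, adjusted p 3.4e-04). Cdh22 reached 10 counts in 9 libraries, none of them BSA. It thus entered the test through groups where it was high, so its call is not independent of the filter. Cdh15, the muscle cadherin, read 0.65, 0.871, 0.877 and 0.559 CPM in BSA and 0.388, 0.297, 0.33 and 0.287 CPM under the palmitate label (log2 fold change -1.21, adjusted p 0.0161). Of the 5 muscle markers 2 were high enough to test, Acta1 and Des. Myod1 had at most 4 counts, Myog at most 2 and Ckm at most 1 in any library. The sum of the 5, mostly Acta1, ran from 23.9 to 25.4 CPM in BSA, 19.5 to 22.9 under the IL-1β label, 17.4 to 18.9 under the palmitate label and 15.3 to 16.9 in palmitate + IL-1β. Des alone stood at 1.57 ± 0.259, 1.7 ± 0.346, 1.24 ± 0.303 and 1.3 ± 0.281 CPM in the same order (SD, n = 4). The part of these markers in the change of Cdh15 was not tested. Cdh18, a cadherin known mainly from neurons, read 0.532, 0.678, 0.839 and 0.873 CPM in BSA and 0.437, 0.297, 0.33 and 0.369 CPM under the palmitate label (log2 fold change -1.08, adjusted p 0.0137). Cdh24 read 2.51, 2.78, 2.86 and 2.44 CPM in BSA and 1.75, 1.63, 1.83 and 2.18 CPM under the palmitate label (log2 fold change -0.55, adjusted p 0.0125). None of these 3 overlapped between the groups, as held for 36% of all genes tested. Each call was lost without palmitate-labelled replicate 10, the deepest library (adjusted p 0.0706 for Cdh15, 0.0773 for Cdh18 and 0.0787 for Cdh24). Cdh15 and Cdh18 had 16 to 27 and 18 to 25 counts in BSA. Under the palmitate label they had as few as 7 and 9, so BSA, where they were high, helped them pass the filter.

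Cdh10 and Cdh23 were the least certain of the cadherin calls under the palmitate label. Cdh10 read 2.9, 2.9, 2.25 and 2.72 CPM in BSA and 2.04, 2.08, 2.05 and 1.77 CPM under the palmitate label (log2 fold change -0.43, adjusted p 0.0207). The call was lost without BSA replicate 1 (adjusted p 0.055) or 2 (0.0531) and without palmitate-labelled replicate 12 (0.0595). Cdh23, a part of the tip links of hair cells, read 0.917, 1.61, 1.64 and 1.29 CPM in BSA and 1.65, 1.95, 2.27 and 1.81 CPM under the palmitate label, with a log2 fold change of 0.51 (adjusted p 0.0489). This call was lost in 14 of 22 alternatives, at adjusted p from 0.0509 to 0.224 where it was lost, the highest without BSA replicate 1. Schwann and glial markers (4 of 5 tested, Sox10 with at most 2 counts in any library), mostly Mbp, summed to 10.6 to 12.7 CPM in BSA and 7.68 to 8.79 CPM under the palmitate label, and their part in the values of the neuronal cadherins Cdh10 and Cdh18 was not tested.

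**Figure D4:**
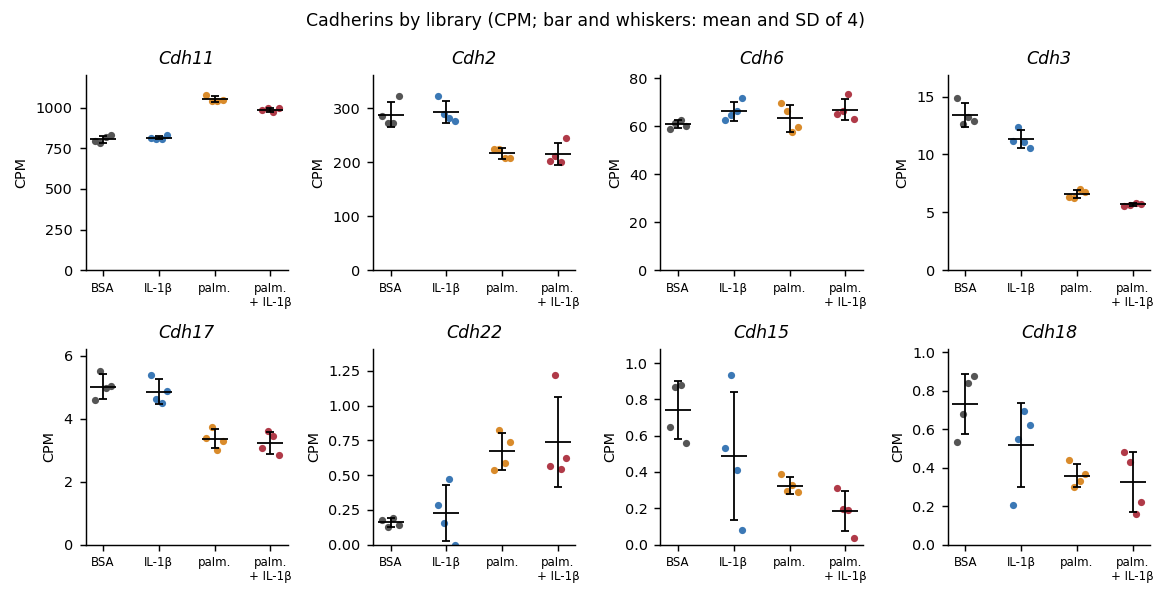
CPM of 8 cadherins in every library, with a bar and whiskers for the mean and SD of 4 libraries and linear axes from 0. Cdh11 is above and Cdh2, Cdh3 and Cdh17 are below the 4 BSA libraries in all 8 libraries labelled palmitate or palmitate + IL-1β, while Cdh22, Cdh15 and Cdh18 lie at or under 1.22 CPM throughout.

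In the libraries labelled IL-1β, 1 of the 34 members was called higher and 3 were called lower against BSA. That is 2.94% and 8.82% of the members, beside 10.1% and 4.97% of all genes tested. The median log2 fold change was -0.07, beside -0.005 over all tested genes. Libraries of these groups did not overlap in 4 members, beside 17.6% of all genes tested. Itgav rose, reading 703, 730, 782 and 875 CPM in IL-1β-labelled replicates 5 to 8 against 606 to 714 CPM in BSA. These groups overlapped, since IL-1β-labelled replicate 5 lay below the highest BSA library. The log2 fold change was 0.24 (SE 0.0645, adjusted p 0.0136), and the call was lost without BSA replicate 1 (adjusted p 0.0574) or 2 (0.0523). Itgb5 read 206, 206, 206 and 203 CPM, all below the BSA libraries (log2 fold change -0.15, adjusted p 0.00809). Itga2b read 4.58, 4.25, 4.33 and 4.72 CPM, again all below BSA (log2 fold change -0.45, SE 0.107, adjusted p 0.00301). Cdh3 read 11.2, 12.4, 11.1 and 10.6 CPM (log2 fold change -0.24, adjusted p 0.0299). Its call was lost without BSA replicate 1 (adjusted p 0.147), without IL-1β-labelled replicate 5 (0.0605), 7 (0.0759) or 8 (0.0978), and with no expression filter (0.0521).

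Most of the members called under the palmitate label had small fitted differences under the IL-1β label. Cdh11 differed by 0.02, Cdh2 by 0.02, Itga11 by 0.03 and Itga8 by -0.01 on the log2 scale, with adjusted p from 0.733 to 0.939 and standard errors from 0.0369 to 0.0629. Itga2 read 1.76, 1.09, 1.49 and 1.41 CPM under the IL-1β label, overlapping the BSA libraries (log2 fold change 0.09, SE 0.201, adjusted p 0.811). Itgb2 read 0.981, 0.78, 1.04 and 0.662 CPM and did not pass (log2 fold change 0.42, SE 0.243, adjusted p 0.276). Cdh22 ranged from 0 to 0.474 CPM under the IL-1β label (0 to 15 counts), and its log2 fold change of 0.60 carried a standard error of 0.575 (adjusted p 0.544). Larger fitted differences that did not pass were also seen in other scarce cadherins. These were -0.58 for Cdh15 (SE 0.388, adjusted p 0.353), -0.46 for Cdh18 (SE 0.337, adjusted p 0.403) and -0.50 for Cdh24 (SE 0.177, adjusted p 0.0518).

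With palmitate + IL-1β, 7 members rose, 15 fell and 12 did not pass against BSA, beside 24.8% of all genes called higher and 22.5% lower. The median log2 fold change was -0.24, beside 0.002 over all tested genes. Libraries of these groups did not overlap in 20 members, beside 41.5% of all genes tested. The 3 comparisons with BSA share the same 4 BSA libraries, so their values are set side by side only. Itgav read 875, 917, 1000 and 842 CPM in palmitate + IL-1β replicates 13 to 16 (log2 fold change against BSA 0.47, adjusted p 2.1e-06). Itgb5 read 166, 157, 156 and 150 CPM, the lowest of the 4 groups (log2 fold change -0.53, SE 0.0394, adjusted p 6.6e-13). Itga11 read 199, 194, 193 and 184 CPM (log2 fold change -0.42, adjusted p 2.2e-10). Itga8 read 195, 190, 199 and 192 CPM (log2 fold change -0.49, adjusted p 4.2e-10). Both alpha chains were lower in every library than in BSA. Itga2 was more spread than in the palmitate-labelled group, at 2.92, 2.25, 3.31 and 4.16 CPM (log2 fold change 1.22, adjusted p 7.4e-07). Itgb2 read 2.26, 1.69, 2.02 and 1.99 CPM (log2 fold change 1.60, SE 0.211, adjusted p 1.4e-07). Itgb4 read 0.906, 0.794, 0.867 and 0.883 CPM, below every BSA library (log2 fold change -0.77, adjusted p 0.00591).

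Itga5 stood at 545 ± 36.0 CPM with palmitate + IL-1β, beside 532 ± 30.2 in BSA and 621 ± 12.4 under the palmitate label (SD, n = 4), and did not pass against BSA (log2 fold change 0.04, SE 0.0496, adjusted p 0.57). Itga3 read 22.8, 23.6, 25 and 20.9 CPM, under all BSA libraries (log2 fold change -0.48, adjusted p 3.8e-08). Itgb3 fell from 49.0 ± 3.43 to 41.2 ± 2.52 CPM (log2 fold change -0.25, adjusted p 5.5e-04). Among the cadherins, Cdh11 read 989, 997, 971 and 996 CPM (log2 fold change 0.29, adjusted p 7.3e-08) and Cdh2 203, 212, 201 and 244 CPM (log2 fold change -0.42, adjusted p 5.9e-06). Cdh3 read 5.58, 5.65, 5.85 and 5.74 CPM, less than the lowest BSA library by a wide gap (log2 fold change -1.23, SE 0.0813, adjusted p 4.2e-14). Cdh17 read 3.06, 3.6, 3.44 and 2.83 CPM (log2 fold change -0.63, adjusted p 3.1e-05).

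Of the scarce cadherins, Cdh22 read 0.566, 1.22, 0.546 and 0.626 CPM with palmitate + IL-1β (log2 fold change 2.19, adjusted p 1.8e-04), with the same limit from the filter. Cdh15 read 0.311, 0.198, 0.193 and 0.0368 CPM (1 to 11 counts, log2 fold change -1.92, adjusted p 5.5e-04). Cdh18 read 0.481, 0.43, 0.161 and 0.221 CPM, all under the BSA libraries (log2 fold change -1.13, adjusted p 0.00869). Cdh24 read 2.26, 1.95, 1.22 and 2.06 CPM (log2 fold change -0.49, adjusted p 0.0189), a call lost without palmitate + IL-1β replicate 15 (adjusted p 0.109). Cdh23 read 1.39, 2.41, 2.15 and 2.24 CPM (log2 fold change 0.59, adjusted p 0.0196), a call lost without BSA replicate 1 (adjusted p 0.116) or without palmitate + IL-1β replicate 14 (0.0778). Cdh10 had a log2 fold change of -0.40 (adjusted p 0.0258) that was lost without BSA replicate 1 (adjusted p 0.0607) or 2 (0.0588) and without palmitate + IL-1β replicate 15 (0.077) or 16 (0.0911). Cdh6 read 65.1, 66.4, 73.4 and 63 CPM, all above the BSA libraries (log2 fold change 0.14, adjusted p 0.0403), and lost its call in 12 of 22 alternatives, at adjusted p up to 0.367 with upper-quartile scaling.

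Palmitate + IL-1β against the libraries labelled IL-1β gave 9 higher and 12 lower members of 34, beside 18.9% and 16.1% of all genes. In that comparison Itga2 differed by 1.13 on the log2 scale (adjusted p 5.9e-06), Itgb2 by 1.19 (2.3e-05), Itgav by 0.23 (0.00658) and Cdh11 by 0.28 (3.6e-07). Itgb5 differed by -0.38 (adjusted p 2.1e-09), Itga11 by -0.45 (1.2e-10), Cdh2 by -0.45 (4.9e-06) and Cdh3 by -0.99 (2.6e-11). Itgb8 ran from 4.68 to 6.66 CPM under the IL-1β label and from 6.65 to 7.67 CPM with both agents (log2 fold change 0.33, adjusted p 0.0151), a call lost without IL-1β-labelled replicate 7 (adjusted p 0.109) or without palmitate + IL-1β replicate 13 (0.0635). The libraries labelled palmitate set directly against those labelled IL-1β gave 10 higher and 9 lower members, beside 16.5% and 15.2% of all genes. There Itga6 differed by 0.46 (adjusted p 2.4e-05) and Itga5 by 0.23 (4.9e-04), and the values of Itga2b, -0.24, did not pass (adjusted p 0.101).

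Palmitate + IL-1β against the libraries labelled palmitate gave 0 members called higher and 3 called lower by edgeR, beside 5.71% and 4.1% of all genes. At an unadjusted p under 0.05, 1 member was higher, and DESeq2 called 0 higher and 4 lower. The called members were Itga3, Itga5 and Itgb5. Itga3 ran from 25.7 to 28.8 CPM under the palmitate label and from 20.9 to 25.0 CPM with both agents (log2 fold change -0.27, SE 0.0591, adjusted p 0.00209). Itga5 ran from 606 to 633 CPM and from 496 to 577 CPM (log2 fold change -0.19, SE 0.0496, adjusted p 0.0124), and this call was lost without palmitate + IL-1β replicate 16 (adjusted p 0.0651). Itgb5 ran from 170 to 175 CPM and from 150 to 166 CPM (log2 fold change -0.13, adjusted p 0.0292). In each of the 3 chains the groups did not overlap, as held for 7 of the 34 members and 16.7% of all genes tested. The call for Itgb5 was lost in 7 of 22 alternatives, each of which left out a library of those groups, that is any palmitate-labelled library or palmitate + IL-1β replicate 14, 15 or 16, at adjusted p from 0.0528 to 0.101.

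The interaction term asks whether the difference with both agents departed from the sum of the differences under the 2 single labels, so it does not depend on which of them is which. It was called for 1 member, Itga2b, in the positive direction, and for 0 in the negative direction by edgeR, beside 0.159% and 1.83% of all genes. At an unadjusted p under 0.05, 3 members had a negative term, and DESeq2 called 1 positive and 0 negative. Itga2b stood at 6.12 ± 0.61 CPM in BSA, 4.47 ± 0.216 under the IL-1β label, 3.79 ± 0.227 under the palmitate label and 4.48 ± 0.506 with both (SD, n = 4). Itga2b was lower than in BSA under each single label, and its mean with both lay close to that under the IL-1β label. The interaction was 0.70 on the log2 scale (SE 0.154, adjusted p 0.00692). With both agents it read 4.64, 4.3, 3.89 and 5.08 CPM, which overlaps the IL-1β-labelled libraries and the palmitate-labelled libraries. For Itgav the term was -0.26 (SE 0.0911, adjusted p 0.225) and for Itga5 -0.18 (SE 0.0701, adjusted p 0.292), neither of which passed.

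Ratios between members within a library do not depend on its depth, and are given here without a test. The ratio of Cdh11 to Cdh2, per kb of exon, was 2.10 ± 0.132 in BSA, 2.09 ± 0.153 under the IL-1β label, 3.64 ± 0.133 under the palmitate label and 3.45 ± 0.271 with both (SD, n = 4). Its highest value in BSA or IL-1β-labelled libraries was 2.24 and its lowest in libraries labelled palmitate or palmitate + IL-1β was 3.05. The ratio of Itgav to its partner Itgb5 was 1.64 ± 0.0874 in BSA, 2.16 ± 0.229 under the IL-1β label, 3.07 ± 0.109 under the palmitate label and 3.31 ± 0.273 with both. IL-1β-labelled libraries lay between 1.95 and 2.47, above the BSA libraries and below all libraries labelled palmitate or palmitate + IL-1β. Itgav relative to Itga5, the main RGD-binding alpha chains here, was 0.53 ± 0.0148 in BSA, 0.629 ± 0.0315 under the IL-1β label, 0.64 ± 0.0272 under the palmitate label and 0.72 ± 0.0358 with both.

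**Figure D5:**
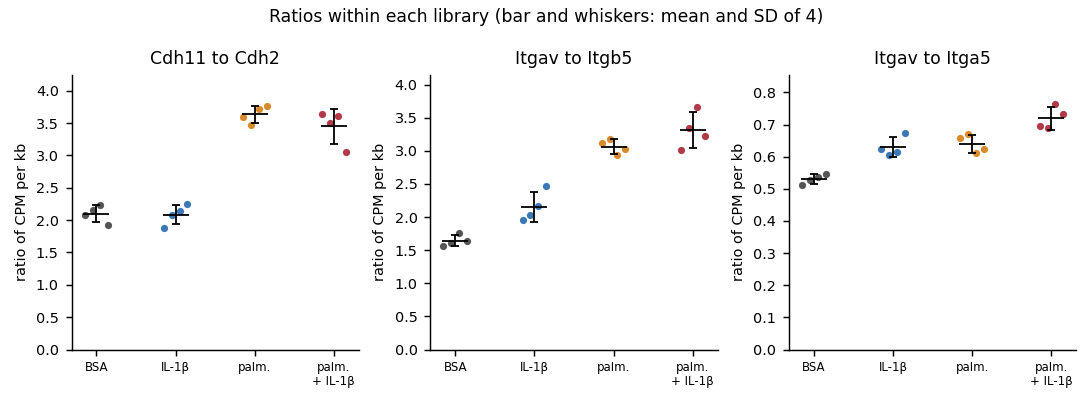
Ratios of Cdh11 to Cdh2, Itgav to Itgb5 and Itgav to Itga5 in CPM per kb of exon, 1 point per library, with a bar and whiskers for the mean and SD of 4 libraries. The Cdh11 to Cdh2 ratio lies at or under 2.24 in BSA and IL-1β-labelled libraries and at or above 3.05 in libraries labelled palmitate or palmitate + IL-1β, while the Itgav to Itgb5 ratio is above the BSA range in all 3 labelled treatments.

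The genes that integrins act through and bind to were read from fixed lists, each by counts over its tested genes. Of all genes tested, 19.8% rose and 17.5% fell under the palmitate label. The shares were 10.1% and 4.97% under the IL-1β label, and 24.8% and 22.5% with both. Of 29 tested focal adhesion adaptors and kinases, 5 rose and 5 fell under the palmitate label, 0 rose and 6 fell under the IL-1β label, and 5 rose and 14 fell with both. By edgeR, 1 of the adaptors and kinases was higher under the IL-1β label at an unadjusted p under 0.05. Their counts under the palmitate label were close to the shares of all genes. Zyx, which encodes zyxin, a protein of mature focal adhesions, went from 225 ± 5.19 CPM in BSA to 175 ± 11.5 under the IL-1β label, 154 ± 4.29 under the palmitate label and 119 ± 4.88 with both (log2 fold changes -0.36, -0.54 and -0.91). Lims2, a partner of integrin-linked kinase, changed by -0.38, -0.48 and -1.14 in the same order. Ptk2, which encodes focal adhesion kinase, rose under the palmitate label (0.35, adjusted p 8.6e-08) and with both (0.32, adjusted p 4.4e-07), from 69.5 ± 2.59 CPM in BSA to 88.8 ± 2.46 and 86.6 ± 3.25.

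Of 38 tested matrix and secreted ligands, 17 rose and 10 fell under the palmitate label. Under the IL-1β label 13 rose and 2 fell, and 15 rose and 12 fell with both. The shares of all genes were 19.8% and 17.5%, 10.1% and 4.97%, and 24.8% and 22.5% in the same order. Lamb3, a laminin chain, rose by 1.01 under the palmitate label and by 1.02 with both on the log2 scale. Fn1, the fibronectin bound by Itga5, rose in all 3 (0.32, 0.42 and 0.43, with adjusted p 0.0203, 0.0112 and 0.00236 for the labels palmitate, IL-1β and both). Ccn3, a matricellular ligand, fell by 1.06 under the palmitate label and by 1.11 with both on the log2 scale. Tgfb3, whose latent form Itgav integrins bind, fell by 0.70, 0.34 and 0.97 under the labels palmitate, IL-1β and both.

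Of 12 tested cell-surface ligands, 7 rose and 1 fell under the palmitate label. Under the IL-1β label 5 rose and 1 fell, and 6 rose and 3 fell with both. The shares of all genes, for these ligands and the catenins below, were 19.8% and 17.5%, 10.1% and 4.97%, and 24.8% and 22.5%. Icam1, the ligand of Itgb2 integrins, stood at 1.19 ± 0.435 CPM in BSA, 13.2 ± 0.878 under the IL-1β label, 110 ± 1.4 under the palmitate label and 123 ± 7.99 with both (log2 fold changes 3.46, 6.51 and 6.67). Vcam1, the ligand of Itga4, stood at 44.3 ± 3.66, 146 ± 5.78, 567 ± 13.4 and 588 ± 19.9 CPM in the same order (1.72, 3.68 and 3.73). Both are known to be induced by IL-1β. They are among the 10 genes of that response counted above, so they add no separate evidence on the labels. Each was higher under the palmitate label than under the IL-1β label. The log2 differences were 3.05 and 1.96 (adjusted p 2.4e-22 and 2.1e-24). Of 19 tested catenins and cadherin partners, 4 rose and 6 fell under the palmitate label, 1 rose and 2 fell under the IL-1β label, and 5 rose and 7 fell with both. Jup, which encodes plakoglobin, changed by -0.55, -0.35 and -1.01 under the labels palmitate, IL-1β and both. Ctnnd1, which encodes p120-catenin, rose by 0.74 under the palmitate label (adjusted p 2.2e-06) and by 0.70 with both (adjusted p 3.0e-06). The core catenins Ctnnb1 and Ctnna1 were not called against BSA, at 293 ± 7.55 and 322 ± 10.1 CPM in BSA and 300 ± 5.89 and 336 ± 9.83 CPM under the palmitate label.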

How the data were processed

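Gingival fibroblast RNA from 16 libraries, 4 per labelled condition, was sequenced by the authors. Per the labels and methods, reads were trimmed with Trimmomatic 0.39, aligned to GRCm39 (GENCODE vM33) with STAR 2.7.10a and counted per gene with HTSeq 2.0.9. A stranded kit for total RNA stands in the labels and an oligo(dT) protocol in the methods, so the library chemistry is uncertain. The deposited values are raw counts per gene, not normalized, and summary rows (18.3% to 21.4% of a column's total) were left out. Genes were filtered with filterByExpr (count minimum 10), scaled by TMM (factors 0.97 to 1.04) and fitted in 1 model over all 16 libraries with edgeR 4.0.16 in R 4.3.3 (glmQLFit, robust, glmQLFTest), with Benjamini-Hochberg adjustment over 16306 genes. The common biological coefficient of variation was 6.08%. CPM values use TMM-scaled library sizes, and kb of exon is from GENCODE vM39. Statements on 3-count limits cover counting error only. Mitochondrial genes took 10.7% to 14% of counts. No pair of libraries in a group agreed within sampling noise (chi-square per degree of freedom 2.06 to 11.7 over 24 pairs). Alternatives were DESeq2 1.42.0, other scalings and filters, fits on the compared libraries only, and leaving out each library. Samples were grouped by their labels alone. Most response genes examined, chosen after the data were seen, went against the IL-1β and palmitate labels in the direct comparison of these groups. Values in every BSA and palmitate-labelled library are given for members called against BSA with a log2 change of 0.5 or more. They are also given for the 5 integrin chains and 3 cadherins with the highest level per kb. In the other groups, the text gives them for only some of these members. Other members with 10 counts in 4 libraries are named with their levels or tests, and of each gene list, called genes among the 4 largest changes in each direction, with Fn1, Ctnnb1 and Ctnna1 chosen after their values were seen. The members and gene lists were chosen with earlier results of these data known. The script was tested on simulated counts in which 197 of 16099 tested genes changed between palmitate and BSA. Changes of 1 or more on the log2 scale were called in the right direction for 88 of 98 genes. Of the smaller changes 49 of 99 were so called, and there were 13 false calls in all. Sequences are from RefSeq. One gene of the ligand list is not reported here by name.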

Additional observations from a re-analysis of the deposited data

Results flagged for a closer look

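Each of the 34 tested members was examined in each of the 4 groups for a library far from the other 3 (Dixon's test at its 95% critical value of 0.829), which chance alone flags in about 1 of 20 groups. Of 136 groups, 8 were flagged. Cdh22 read 1.22 CPM in palmitate + IL-1β replicate 14, beside 0.546 to 0.626 CPM in the others. Cdh24 read 1.32 CPM in IL-1β-labelled replicate 8, beside 1.99 to 2.07. Cdh10 read 1.77 CPM in palmitate-labelled replicate 12, beside 2.04 to 2.08. Cdh13 read 17.1 CPM in palmitate + IL-1β replicate 16, beside 19.6 to 19.9. Itga1 read 91.2 CPM in IL-1β-labelled replicate 8, beside 74.9 to 77.6, and Itgb5 read 203 CPM there, beside 206 in each of the others. Itga11 read 189 CPM in palmitate-labelled replicate 11, beside 199 to 200, and Itga7 read 6.2 CPM there, beside 4.76 to 4.93. The gaps for Itgb5 and Itga11 were small against the level of the gene, and that for Cdh22 was large. The call for Cdh10 under the palmitate label was lost without replicate 12 (adjusted p 0.0595).

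For Itga2b the difference with both agents departed from the sum of those under the single labels, by an interaction of 0.70 on the log2 scale in edgeR's quasi-likelihood test (SE 0.154, adjusted p 0.00692). It was called in every alternative tried, including each omission of 1 library. The term does not depend on which of the single labels is which.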

How the results depend on the processing

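Of the 94 member calls over the 7 comparisons, 69 held under every alternative, 25 were lost under at least 1 and 0 changed sign. The number of members called against BSA under the palmitate label was 24, with a range of 18 to 24 when 1 library was left out (18 without palmitate-labelled replicate 10) and 21 to 25 otherwise. Under the IL-1β label it was 4, with 2 to 5 when 1 library was left out (2 without BSA replicate 1) and 3 to 5 otherwise. For palmitate + IL-1β the ranges with 1 library left out were 19 to 22 against BSA (22 with all libraries), 17 to 22 against the IL-1β label (21) and 1 to 3 against the palmitate label (3), with 1 left without palmitate + IL-1β replicate 16. Under the other alternatives they were 18 to 23, 19 to 21 and 3 to 4. The palmitate label against the IL-1β label gave 16 to 20 with 1 library left out and 18 to 20 otherwise (19 with all). The interaction gave 1 with each library left out and 2 with no expression filter. Upper-quartile scaling moved the split over all genes to 2402 higher of 6466 called under the palmitate label, in place of 3228 of 6083, to 1192 of 2743 under the IL-1β label, in place of 1654 of 2464, and to 3115 of 8053 with both, in place of 4041 of 7705.

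The values that changed sign were not called with all libraries. With upper-quartile scaling Cdh11 was at -0.03, Cdh2 at -0.02 and Itga11 at -0.02 under the IL-1β label, Cdh6 at -0.01 under the palmitate label and Itga5 at -0.04 with both. Itgb1 under the palmitate label was at -0.07 with upper-quartile scaling, -0.01 with no expression filter, -0.02 with 10 counts required in every library, and 0 with DESeq2, RLE factors or only the compared libraries. With upper-quartile scaling Itgb1 was called with both agents (-0.11). With 1 library left out, the log2 fold changes under the IL-1β label ran from 0 to 0.03 for Cdh11, -0.03 to 0.08 for Cdh2, -0.1 to 0.97 for Cdh22, -0.19 to 0.09 for Cdh23, -0.01 to 0.2 for Itga2, -0.03 to 0.03 for Itga5 and Itgb1, and -0.23 to 0.05 for Itgb4. Under the palmitate label Itgb1 ran from -0.03 to 0.03, and with both Itga5 ran from 0 to 0.08. The lower level of Cdh24 under the IL-1β label passed in 4 of 22 alternatives (DESeq2, upper-quartile scaling, 10 counts required in every library, and without palmitate + IL-1β replicate 15), where it did not pass with all libraries (adjusted p 0.0518). The causes were not tested. No paired analysis was possible because the replicate numbers differ between groups. Depth limits the cadherins at a few counts per library, Cdh22, Cdh15, Cdh18 and Cdh1.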
